A study of Homo sapiens with 2 samples.

Results

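The olfactory receptor genes of human chromosome 11 were examined for DNase I hypersensitive sites in 2 osteosarcoma cell lines, Saos-2 and U2OS. The genes were taken from RefSeq (GRCh38.p14, the assembly of hg38) as the protein-coding genes of this chromosome whose symbol is OR followed by digits, letters and digits. The rule found 171 genes, and 168 of them lie on chromosome 11 itself, among 19866 protein-coding genes of all chromosomes. The other 3, OR8U8, OR8U9 and OR9G9, are annotated on separate scaffolds that carry the chromosome's name, and they could not be set against lists made on an hg38 assembly without alternate contigs. All counts below are over the 168 placed genes. The deposited list of each line gives hotspots, which are stretches with more DNase I cuts than their surroundings, at a false discovery rate of 0.05. Each line gave 1 library, and the labels name no treatment. Without replicates the lines are described side by side and not tested. The lists held 51556 hotspots for Saos-2 and 63388 for U2OS, and the number of reads behind them is unknown. The bone lineage genes RUNX2, SP7 and COL1A1 each had a hotspot within 10 kb in both lines. Since 71.0% of all protein-coding genes did so too, this does not test the labelled cell type.

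Olfactory receptors are G protein-coupled receptors of the nasal sensory neurons, and they form the largest gene family of the human genome. Each mature sensory neuron expresses a single receptor allele, and the remaining receptor genes are kept in compact heterochromatin. The genes have a coding region in 1 exon, stand in tandem arrays together with many pseudogenes, and are split into class I receptors, related to those of fish, and class II receptors. Outside the nose most of them are transcribed little or not at all. Hotspots report accessibility and not transcription, and in a bulk library a site that is weak in all cells cannot be told apart from one that is strong in a few.

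The receptor genes were short, with a median span of 1103 bp (912 to 165335 bp), and 89 of them spanned at most 1200 bp. Class I, here families 51, 52 and 56, held 55 genes, and class II held 113. A promoter window, from 250 bp before to 50 bp after an annotated start, was given by RefSeq for 135 of the 168 genes, in 138 windows. The windows of 4 receptor genes and of 1 neighbour are shown because they span the range of base composition and of accessibility met below; CG pairs are in capitals, sequences run 5′ to 3′ on the strand of the gene, and all 5 genes are on the plus strand. OR52N2 (chr11:5808674-5808973) had the only receptor window that a hotspot touched. OR56B1 (chr11:5736198-5736497) had a U2OS hotspot that began 7 bp past the end of its window. OR5L1 (chr11:55811117-55811416) lay among the receptor genes farthest from any Saos-2 hotspot. OR51E1 (chr11:4643732-4644031) had the highest GC content of the receptor windows. ZNF215 (chr11:6926176-6926475), a zinc finger gene beside OR2D3, had hotspots of both lines in its window.
OR52N2: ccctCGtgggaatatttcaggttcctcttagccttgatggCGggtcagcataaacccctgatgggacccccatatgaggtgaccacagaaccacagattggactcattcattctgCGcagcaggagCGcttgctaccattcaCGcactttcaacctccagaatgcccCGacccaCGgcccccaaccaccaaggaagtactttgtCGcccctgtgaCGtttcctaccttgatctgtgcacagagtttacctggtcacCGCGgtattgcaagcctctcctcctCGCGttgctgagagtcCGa
OR56B1: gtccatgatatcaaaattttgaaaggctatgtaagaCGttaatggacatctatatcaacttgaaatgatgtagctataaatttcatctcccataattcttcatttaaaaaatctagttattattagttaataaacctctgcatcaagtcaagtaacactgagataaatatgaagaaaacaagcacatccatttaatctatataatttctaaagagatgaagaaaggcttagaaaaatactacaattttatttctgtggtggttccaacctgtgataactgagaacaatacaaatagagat
OR5L1: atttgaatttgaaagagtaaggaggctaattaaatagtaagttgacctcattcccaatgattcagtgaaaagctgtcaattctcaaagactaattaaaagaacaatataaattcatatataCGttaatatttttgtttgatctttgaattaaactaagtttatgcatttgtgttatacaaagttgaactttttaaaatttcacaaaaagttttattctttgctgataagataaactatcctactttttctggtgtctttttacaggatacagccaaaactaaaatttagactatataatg
OR51E1: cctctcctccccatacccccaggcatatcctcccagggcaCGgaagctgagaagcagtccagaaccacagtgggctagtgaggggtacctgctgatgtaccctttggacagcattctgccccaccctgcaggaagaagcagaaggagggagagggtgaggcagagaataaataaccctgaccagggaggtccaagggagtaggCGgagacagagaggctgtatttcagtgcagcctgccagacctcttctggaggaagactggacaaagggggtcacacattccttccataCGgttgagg
ZNF215: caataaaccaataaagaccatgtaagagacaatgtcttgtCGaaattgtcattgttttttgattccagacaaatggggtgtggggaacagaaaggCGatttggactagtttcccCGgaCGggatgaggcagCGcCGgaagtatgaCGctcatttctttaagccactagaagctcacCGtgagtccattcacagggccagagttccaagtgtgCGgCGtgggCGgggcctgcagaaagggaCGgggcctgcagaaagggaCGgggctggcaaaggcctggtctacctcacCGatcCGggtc
In these letters OR52N2 holds 14 CG pairs and ZNF215 holds 15. OR51E1 holds 3 at a GC content of 57.0%, whereas OR56B1 and OR5L1 hold 1 each at 28.7% and 25.7%.

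A gene was said to have a site when a hotspot overlapped its span extended by 10 kb on each side, by at least 1 bp. Of the 168 receptor genes, 130 (77.4%, Wilson 95% interval 70.5 to 83.1%) had no site in either line. In Saos-2, 158 (94.0%, 89.4 to 96.7%) had none, and 10 (5.95%, 3.27 to 10.6%) had a site. In U2OS, 133 (79.2%, 72.4 to 84.6%) had none, and 35 (20.8%, 15.4 to 27.6%) had a site. Against this, the share of all protein-coding genes with a site was 75.2% in Saos-2, 81.9% in U2OS and 86.2% in either line. Among the 1129 other protein-coding genes of chromosome 11 these shares were 74.8%, 84.3% and 87.2%, so receptor genes stood far below the genes around them in each list. The intervals cover counting error only, and they treat genes as independent. Neighbouring genes share windows, so the intervals understate their uncertainty.

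A site in both lines was found for 7 receptor genes (4.17%), compared with 71.0% of all protein-coding genes and 71.9% of the other genes of chromosome 11. A site in U2OS only was found for 28 (16.7%), compared with 10.9% and 12.4%, and in Saos-2 only for 3 (1.79%), compared with 4.21% and 2.92%. Inside the gene span itself, without flanks, a hotspot was called in 11 receptor genes, 4 in Saos-2 and 9 in U2OS. The corresponding shares of receptor genes were 2.38% in Saos-2, 5.36% in U2OS and 6.55% in either line. The shares were 60.6%, 66.9% and 72.0% for all protein-coding genes and 57.2%, 66.4% and 70.2% for the other genes of the chromosome. Median spans were 1.1 kb for receptor genes, 24.5 kb for all protein-coding genes and 18.2 kb for the other genes of the chromosome. The comparison without flanks is therefore not made at equal length.

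**Figure D1:**
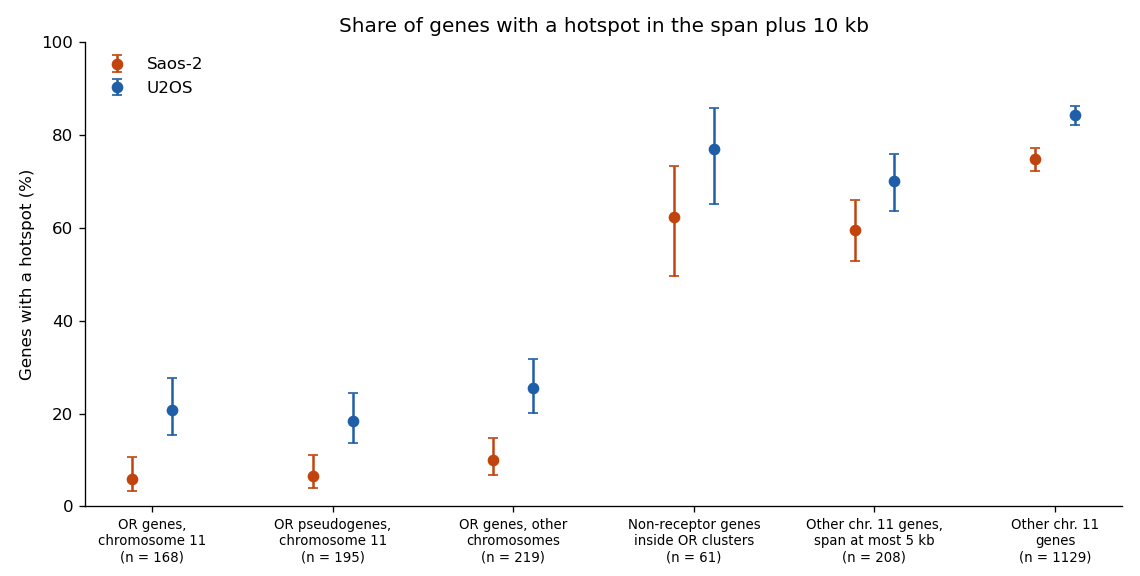
Share of genes with a hotspot in the span plus 10 kb, in percent, for each gene group (x axis, with the number of genes) in Saos-2 (orange) and U2OS (blue). Points are shares and bars are Wilson 95% intervals of counting error. The 3 receptor groups on the left lie below 32% with their intervals, and the 3 groups of other genes lie above 49%.

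Gene length enters this measure, because the other genes of the chromosome had a median span of 18.2 kb and therefore longer windows. With a window of one length for all genes, the midpoint of the span plus and minus 10 kb, 16.7% of receptor genes (interval 11.8 to 23.0%) and 57.3% of the other genes (54.4 to 60.2%) had a site in either line. Among genes with spans of at most 5 kb and the original flanks, the shares were 17.1% of 111 receptor genes and 74.0% of 208 other genes. The contrast between the groups was thus present at equal window length and among short genes.

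Genes of other kinds inside the clusters had higher shares. Clusters were formed by joining receptor genes at most 1 Mb apart, so they take in long gaps without a receptor gene. They contain 61 protein-coding genes that are not receptors, some of them in such gaps. Of these 61, 62.3% (49.7 to 73.4%) had a site in Saos-2 and 77.0% (65.1 to 85.8%) in U2OS. Their median span was 12.2 kb, and with the window of one length the shares were 29.5% (19.6 to 41.9%) and 41.0% (29.5 to 53.5%). For the receptor genes that window gave 4.17% (2.03 to 8.35%) and 14.9% (10.3 to 21.0%). Receptor pseudogenes, decayed copies taken from all of chromosome 11 whether or not inside a cluster, numbered 195. Of these, 6.67% had a site in Saos-2 and 18.5% in U2OS. The 219 receptor genes of other chromosomes had sites in 10.0% of cases in Saos-2 and 25.6% in U2OS. The intervals of the pseudogenes and of the receptors on other chromosomes overlapped those of the chromosome 11 receptor genes in both lines.

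Taken per unit of length, the windows of the 168 genes merged into 90 stretches of 3.463 Mb, or 2.57% of the chromosome. They held 9 Saos-2 hotspots, 2.6 per Mb, against 17.3 per Mb on the rest of the chromosome. They held 37 U2OS hotspots, 10.7 per Mb, against 23.6 per Mb. The density in the windows was thus 6.65-fold lower in Saos-2 and 2.21-fold lower in U2OS. The share of a line's chromosome 11 hotspots that fell in these windows was 0.395% (0.208 to 0.749%) in Saos-2 and 1.18% (0.856 to 1.62%) in U2OS. U2OS had 4.11-fold as many hotspots as Saos-2 in the windows and 1.37-fold as many on the rest of the chromosome. Among chromosome 11 hotspots more than 10 kb from every protein-coding gene, the ratio was 1.56. Depth, copy number and accessibility cannot be told apart in these lists.

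Distances to the nearest hotspot showed the same order. The median distance from a receptor gene span was 79.8 kb in Saos-2 (quartiles 38.3 and 162 kb) and 31.9 kb in U2OS (13.1 and 55.5 kb). For the other protein-coding genes of the chromosome both medians were 0, since more than 50% of them contained a hotspot. More than 100 kb separated 67 receptor genes (39.9%) from the nearest Saos-2 hotspot and 17 (10.1%) from the nearest U2OS hotspot. Among the other genes of the chromosome these shares were 3.9% and 1.15%.

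**Figure D2:**
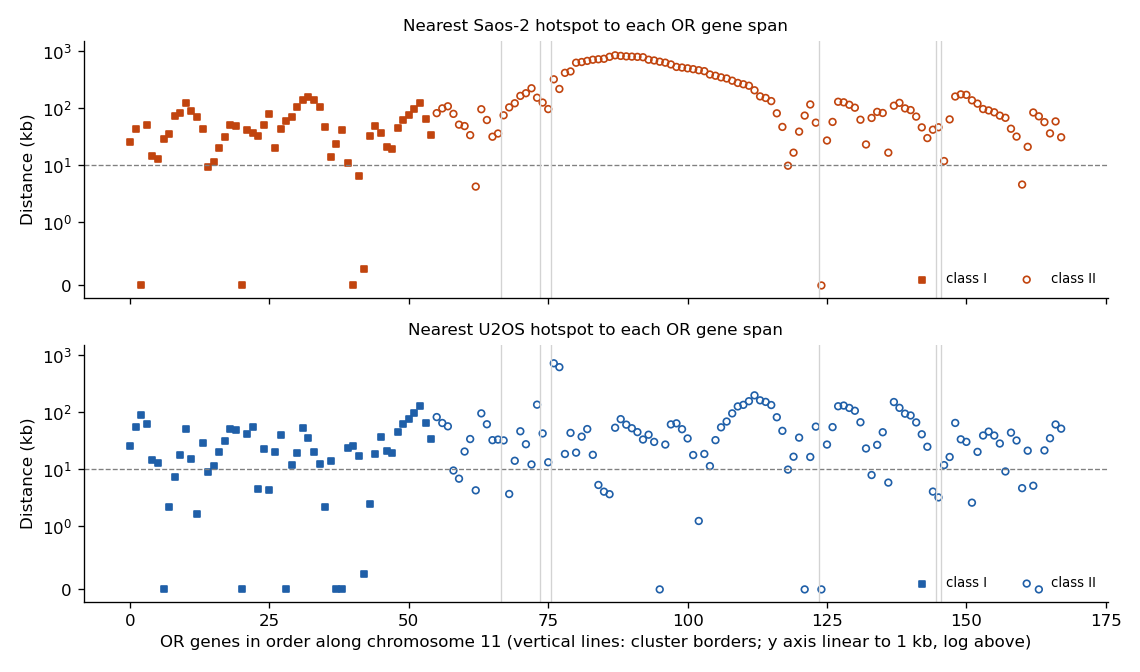
Distance from each of the 168 receptor genes to the nearest Saos-2 hotspot (top) and U2OS hotspot (bottom), in kb, on an axis that is linear to 1 kb and logarithmic above. Genes are in order along the chromosome, filled squares are class I, open circles are class II, vertical lines are cluster borders and the dashed line marks 10 kb. The arch in the upper panel, up to 848 kb, is the long stretch without a Saos-2 hotspot.

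The genes fell into 7 groups when members at most 1 Mb apart were joined. The first, from OR52B4 to OR10A3 (chr11:4367263-7941708), held 67 genes, among them all 55 of class I. Of these 67, 7 had a site in Saos-2 and 17 in U2OS, and 47 had none. The stretch as a whole contained 34 Saos-2 hotspots (9.51 per Mb) and 55 U2OS hotspots (15.4 per Mb), of which 6 and 18 fell in receptor windows. The share of its length that these windows cover was not computed, so the counts do not show a depletion within the stretch. The stretch also contained 43 other protein-coding genes, 26 of which had a site in Saos-2 and 32 in U2OS.

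The other large group, from OR4C46 to OR5AK2 (chr11:54603069-56989843), held 48 class II genes and 2 other protein-coding genes. Of the 48 receptor genes, 1 had a site in Saos-2 and 7 in U2OS. Over its 2.39 Mb the group had 1.68 Saos-2 hotspots per Mb and 7.54 U2OS hotspots per Mb. The group from OR9Q1 to OR10V1 held 21 genes, with a site for 1 gene in Saos-2 and for 4 in U2OS. Within its borders lay 24 and 43 hotspots, or 14.2 and 25.4 per Mb. The group from OR6X1 to OR8A1 held 22 genes, with a site for 1 gene in Saos-2 and for 5 in U2OS. Its densities were 3.67 and 9.78 per Mb. Outside the receptor windows the chromosome had 17.3 Saos-2 and 23.6 U2OS hotspots per Mb. The small groups from OR4B1 to OR4A47, of 7 genes, and from OR4C13 to OR4C12, of 2 genes, had 1 gene with a U2OS site between them and none with a Saos-2 site. OR2AT4 stood alone and had a U2OS site.

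Class I and class II were compared with that arrangement in mind, since class I is confined to 1 group. A site was present for 6 of 55 class I genes in Saos-2 (10.9%, 5.1 to 21.8%) and for 4 of 113 class II genes (3.54%, 1.39 to 8.75%). In U2OS the counts were 14 of 55 (25.5%, 15.8 to 38.3%) and 21 of 113 (18.6%, 12.5 to 26.7%). With these windows the intervals of the classes overlapped in both lines. With the window of one length for all genes, 10.9% of class I genes (5.1 to 21.8%) and 0.885% of class II genes (0.156 to 4.84%) had a Saos-2 site, and 21.8% (12.9 to 34.4%) and 11.5% (6.85 to 18.7%) had a U2OS site. The median distance to the nearest Saos-2 hotspot was 42.4 kb for class I and 111 kb for class II, and 12.7% and 53.1% of the genes lay more than 100 kb from one. In U2OS 1.82% and 14.2% lay that far from one. All class I genes lie in the first group, together with 12 class II genes. Of all 67 genes of that group, 10.4% had a site in Saos-2 and 25.4% in U2OS. The classes were not compared within the group, so class and position are not told apart here.

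Among the families with more than 15 genes, no site in either line was found for 30 of 34 genes of family 5, 21 of 24 of family 4 and 18 of 22 of family 8. The counts were 17 of 25 for family 52, 15 of 23 for family 51 and 10 of 16 for family 10.

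The longest stretch of chromosome 11 without a Saos-2 hotspot lay in the receptor array near the centromere. It ran over 1.699 Mb (chr11:54925620-56624662) and contained 41 receptor genes, from OR4A16 to OR5M1, and 2 other protein-coding genes, TRIM48 and TRIM51. OR5D13, OR5D14 and OR5L1 were the most remote, at 848, 828 and 812 kb from the nearest Saos-2 hotspot. U2OS had 11 hotspots in the same stretch, 6.47 per Mb, with a median −log10 significance of 3.38 and a maximum of 11.9. For 6 of the 41 genes, OR4S2, OR4C6, OR5D3, OR10AG1, OR8K5 and OR5M1, a U2OS hotspot lay within 10 kb. The median distance of the 41 genes to the nearest hotspot was 501 kb in Saos-2 and 44.6 kb in U2OS.

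The longest U2OS stretch without a hotspot, of 4.691 Mb (chr11:50633434-55324656), spanned the centromere and held 2 receptor genes, OR4C46 and OR4A5, at 721 and 617 kb from the nearest U2OS hotspot. OR8U3, at 197 kb, came next. Within the array, 15 receptor genes from OR5T2 to OR5M1 lay in a U2OS stretch of 0.4047 Mb without a hotspot, the twelfth in length on the chromosome. The 20 longest stretches held 43 receptor genes in Saos-2 and 26 in U2OS. Of these 20, 2 contained a receptor gene in Saos-2 and 4 in U2OS, so most of the long stretches lay elsewhere.

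The exceptions were 38 genes around 39 distinct sites, counting overlapping hotspots of the lines once. No gene had more than 2 hotspots in a line. The authors' significance of a hotspot is given as −log10, for which the lists start at 1.30 and end at 100. It had a median of 4.83 for the 9 Saos-2 hotspots near receptor genes (1.58 to 8.59) and of 3.85 for the rest of the chromosome. For the 37 U2OS hotspots the median was 4.55 (1.35 to 25.8), against 4.62 for the rest. Hotspots near receptor genes were few, and their median significance was close to that of the rest of the chromosome in U2OS and above it in Saos-2.

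Of the 9 Saos-2 hotspots, 7 (77.8%, 45.3 to 93.7%) overlapped a U2OS hotspot, compared with 63.6% on the rest of the chromosome. Of the 37 U2OS hotspots, 7 (18.9%, 9.48 to 34.2%) overlapped a Saos-2 hotspot, compared with 45.5% (43.8 to 47.3%). The U2OS hotspots near receptor genes were thus mostly ones that the Saos-2 list lacked. The 7 U2OS hotspots that were overlapped had a median significance of 6.55, and the 30 others had 3.5. The same split was not made on the rest of the chromosome.

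**Figure D3:**
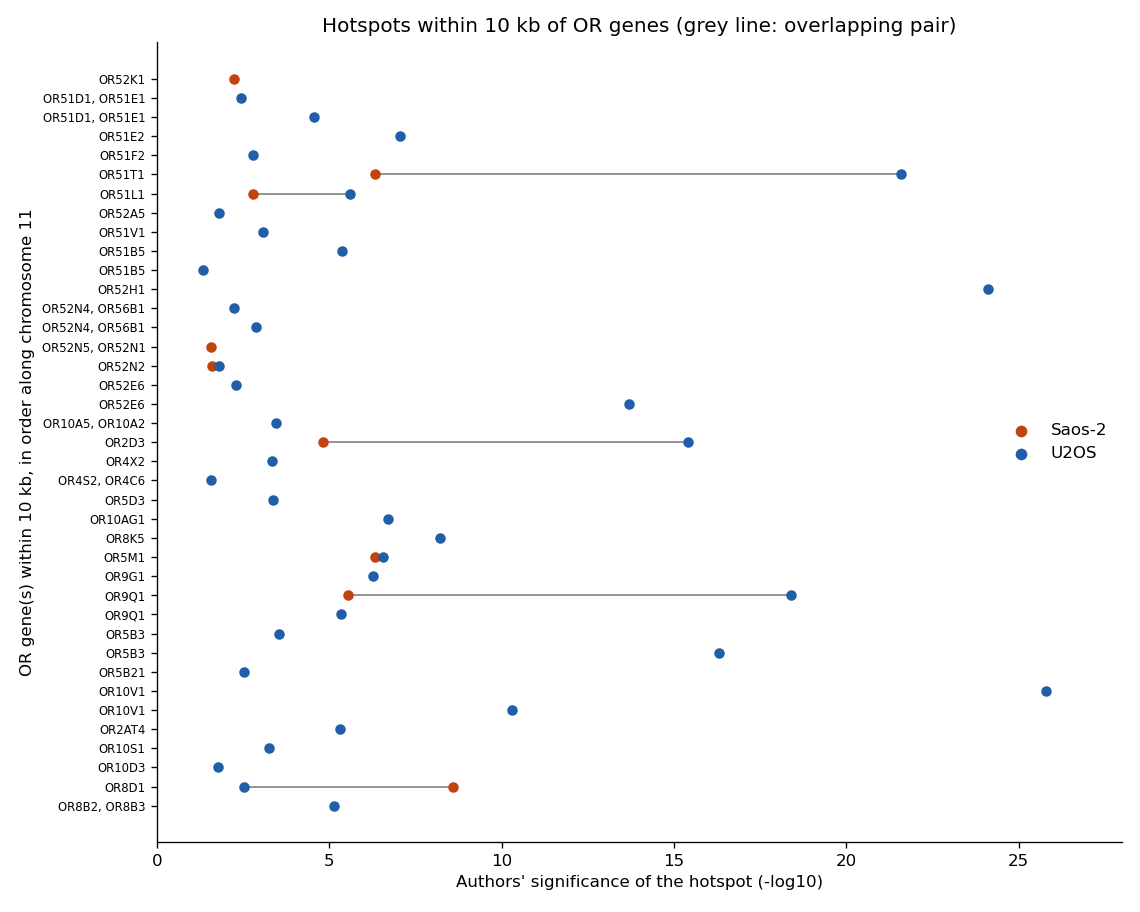
Authors' significance (−log10) of the hotspots within 10 kb of receptor genes, 1 row per distinct site in order along the chromosome and labelled with the receptor genes it is near. Orange points are Saos-2, blue points are U2OS, and a grey line joins overlapping hotspots. In 6 of the 7 joined pairs the U2OS value is the higher one, and the pair beside OR8D1 has the opposite order. The order was not counted for overlapping pairs elsewhere on the chromosome. Over the whole lists the median is 4.05 in Saos-2 and 4.6 in U2OS.

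Sites found in both lines are described first. Beside OR2D3 (gene 120775, chr11:6921002-6921994), a hotspot at the start of the neighbouring gene ZNF215 lay 4.21 kb from the receptor, and its significance was 4.83 in the Saos-2 list and 15.4 in the U2OS list. It is the one site in the set that lay within 1 kb of an end of a protein-coding gene that is not a receptor. Near OR51T1 (gene 401665, chr11:4881900-4882883) a hotspot 9.15 kb away in Saos-2 and 9.06 kb away in U2OS had a significance of 6.32 and 21.6. It fell inside MMP26, a matrix metalloproteinase gene whose span runs through the class I receptors.

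OR51L1 (gene 119682, chr11:4994851-5005536) had hotspots of both lines inside its own span, with 2.78 in Saos-2 and 5.6 in U2OS. OR9Q1 (gene 219956, chr11:58023881-58181616), one of the 2 receptor genes with a span over 100 kb, also had them inside its span, with 5.53 in Saos-2 and 18.4 in U2OS at the shared site. These were the only receptor genes with a hotspot inside the span in both lines. The OR9Q1 site lay 188 kb from the nearest protein-coding gene that is not a receptor.

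The shared site near OR5M1 (gene 390168, chr11:56609236-56614874) ended the long Saos-2 stretch described above. It lay 9.79 kb from the gene in Saos-2, with a significance of 6.34, and 9.81 kb in U2OS, with 6.55. The nearest protein-coding gene that is not a receptor, LRRC55, was 557 kb away. Near OR8D1 (gene 283159, chr11:124302831-124313949) the order of the lines was the reverse of the other pairs, with 8.59 in Saos-2 and 2.52 in U2OS.

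OR52N2 (gene 390077, chr11:5808924-5821483) had the shared site nearest to a receptor start. The hotspot was 68 bp wide in Saos-2, with a significance of 1.59, and 74 bp wide in U2OS, with 1.8, both close to the limit of the lists. It ended 0.265 kb before the gene in Saos-2 and 0.243 kb before it in U2OS. The U2OS hotspot covered the first 8 bp of the promoter window printed above, and the Saos-2 hotspot ended 15 bp before it.

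Sites in Saos-2 only were 2. One lay inside OR52K1 (gene 390036) near the end of its span, with a significance of 2.23. The other lay inside OR52N5 (gene 390075) and 6.5 kb from OR52N1, with 1.58. Both were among the weaker hotspots of the list, whose median on the rest of the chromosome was 3.85.

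Sites in U2OS only were 30, and some reached a significance of 10. The highest significance was 25.8, at a hotspot of 684 bp near OR10V1 (gene 390201), 5.62 kb from the gene, and a further hotspot 4.04 kb from it had 10.3. With 1013 covered bases OR10V1 had the most accessible window of all receptor genes in U2OS, while Saos-2 had none there. A hotspot 2.13 kb from OR52H1 (gene 390067) had 24.1. A hotspot 7.88 kb from OR5B3 (gene 441608) had 16.3, and one 2.42 kb from OR52E6 (gene 390078) had 13.7. Among all hotspots near receptor genes, shared ones included, 8 of the 37 in U2OS and none of the 9 in Saos-2 reached 10. The 8 include the shared sites near OR51T1, OR2D3 and OR9Q1. The share that reached 10 on the rest of the chromosome was not counted. The maximum there was 58.8 in Saos-2 and 92.9 in U2OS.

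Hotspots inside a receptor span in U2OS only were found in 7 genes. OR56B1 (gene 387748) had 2, with 2.23 and 2.87, of which the first began 0.056 kb past the annotated start, and both also lie in the long annotated span of OR52N4. OR51B5 (gene 282763), the longest receptor span at 165335 bp, had 2, with 5.38 and 1.35. OR51D1 had a hotspot of 4.55 in its span. OR10AG1 had one of 6.71, OR9G1 one of 6.27 and OR8B3 one of 5.14. OR51E1 and OR51E2, receptor genes known for expression in the prostate, had U2OS hotspots outside their spans, at 2.2 and 7.36 kb. The one at 2.2 kb from OR51E1 is the hotspot inside OR51D1.

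Further U2OS hotspots lay outside receptor spans, near OR51F2, OR52A5, OR51V1, OR10A5 and OR10A2, OR4X2, OR4S2 and OR4C6, OR5D3, OR8K5, OR5B21, OR2AT4, OR10S1 and OR10D3. Their significance ran from 1.58, between OR4S2 and OR4C6, to 8.22, at 1.23 kb from OR8K5. The hotspot inside OR8B3 was also 5.11 kb from OR8B2. A lesser hotspot near OR52E6 had 2.29, one near OR5B3 had 3.55, one beside OR51D1 had 2.43 and a further one inside OR9Q1 had 5.33. Each receptor gene not named with a site had none.

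Most of these hotspots lay more than 15 kb from any protein-coding gene that is not a receptor. They were picked for lying near receptor genes, and the same distance was not taken for the receptor genes themselves. The median distance of the hotspots near receptor genes to the closest protein-coding gene that is not a receptor was 97.7 kb in Saos-2 and 74.6 kb in U2OS. Within 15 kb of such a gene lay 3 of the 9 Saos-2 and 5 of the 37 U2OS hotspots. The genes concerned were MMP26, ZNF215 and, for a U2OS hotspot near OR5B21, LPXN at 12.8 kb. No annotated gene of any kind overlapped 3 of the Saos-2 and 22 of the U2OS hotspots.

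Widening the flanks can only raise the share of genes with a site, and it did so in both groups. Without flanks 2.38% of receptor genes had a site in Saos-2 and 5.36% in U2OS. The shares were 11.3% and 36.3% with 20 kb, 34.5% and 68.5% with 50 kb, and 60.1% and 89.9% with 100 kb. For the other genes of the chromosome they began at 57.2% and 66.4% and reached 96.1% and 98.8%. In U2OS the receptor genes thus came within 10 percentage points of the other genes at 100 kb, and in Saos-2 they did not. The other genes were near the ceiling by then, so the narrowing does not show how local the absence was.

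**Figure D4:**
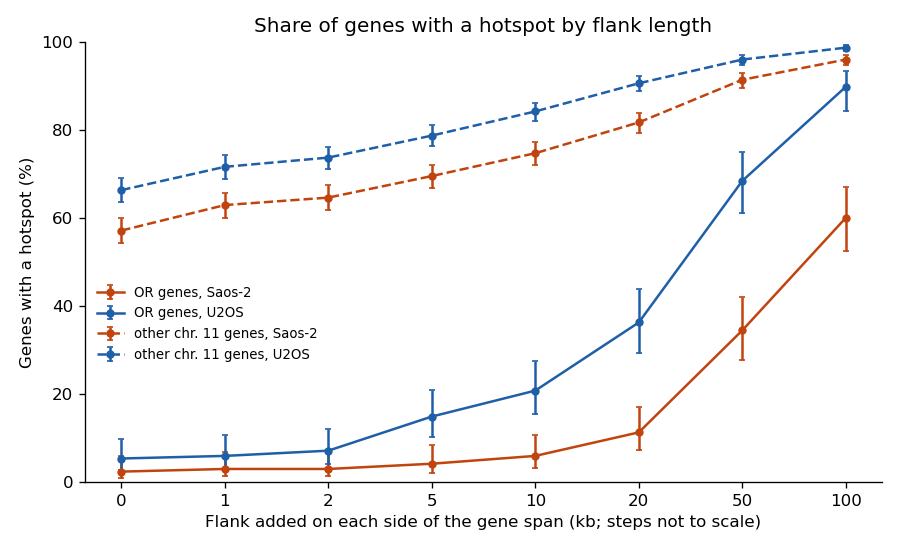
Share of genes with a hotspot, in percent, against the flank added on each side of the gene span, in kb (steps not to scale), for receptor genes (solid) and the other protein-coding genes of chromosome 11 (dashed) in Saos-2 (orange) and U2OS (blue). Bars are Wilson 95% intervals of counting error. At 10 kb the receptor genes are at 5.95% and 20.8% and the other genes at 74.8% and 84.3%.

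The promoter windows printed above belong to a set that differed from other promoter windows in base composition. They rest on annotated starts, and 89 of the 168 receptor genes spanned at most 1200 bp. In such genes the annotated start may be that of the coding region, and the window may then miss the promoter. This was not tested, and it applies to the hotspot, base composition and motif counts below. Of 138 receptor windows, 0 overlapped a Saos-2 hotspot, which allows a share of up to 2.17%, and 1 (0.725%) overlapped a U2OS hotspot, that of OR52N2. Among 22199 windows of all protein-coding genes, 39.7% overlapped a hotspot in Saos-2, 43.6% in U2OS and 47.8% in either line. Receptor windows had a median GC content of 37.0% (24.3 to 57.0%) and a median of 1 CG pair per 300 bp, and 37 of them had none. Other windows of the chromosome had a median GC content of 62.3% and 21 CG pairs.

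OR52N2, the receptor whose window was touched, had 14 CG pairs, the most of any receptor window, and the next was OR51S1 with 6. Windows with a GC content of at most 45% and at most 2 CG pairs were also compared. Among these, 0 of 103 receptor windows overlapped a hotspot of either line, which allows a share of up to 2.91%. Of 1451 windows of other protein-coding genes of all chromosomes, 82 did (5.65%, 4.58 to 6.96%). Receptor genes of other chromosomes were not taken out of this comparison set. At low GC content its windows were also mostly without a hotspot, and its share with one lay above the receptor limit.

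**Figure D5:**
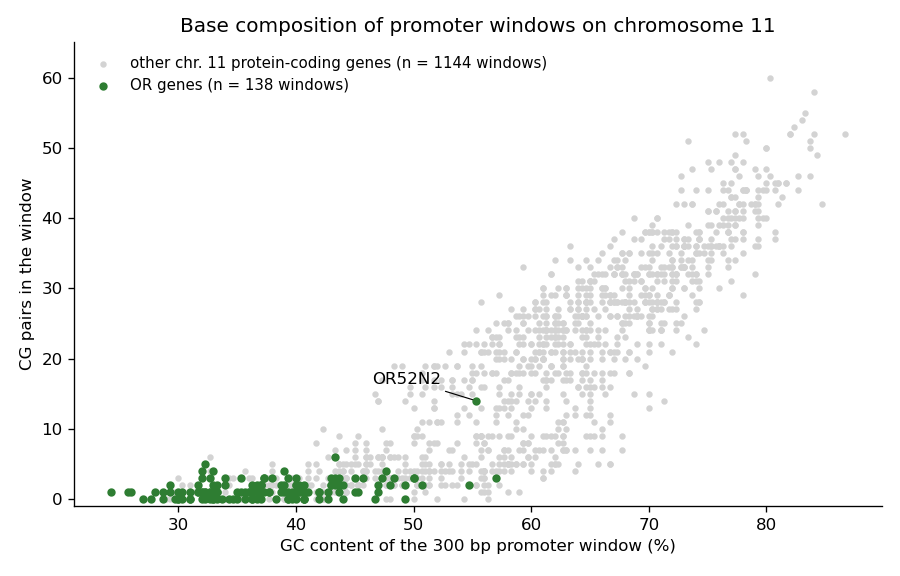
GC content in percent (x axis) and number of CG pairs (y axis) of each 300 bp promoter window of receptor genes (green) and other protein-coding genes (grey) of chromosome 11. Receptor windows lie at the lower left, with a median of 37.0% GC and 1 CG pair, and OR52N2 stands apart with 14 pairs.

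Motifs of factors known to act on receptor genes in sensory neurons were searched in the windows. The homeodomain core TAATTA, of the kind bound by LHX2, reads the same on both strands and was present in 34 of 138 receptor windows (24.6%), including 2 copies in OR5L1. It was present in 3.39% of all protein-coding windows, and in 27.2% of receptor and 13.6% of other windows of the low GC class. TATAAA, searched on both strands, was present in 36.2% of receptor and 9.47% of all windows, and in 40.8% and 36.3% of the low GC class. The other windows of that class were not cleared of receptor genes of other chromosomes. The palindromic EBF motif, TCCC and GGGA with any 2 bases between them, was present in 2 receptor windows (1.45%) and in 1.38% of all windows. The motifs do not contain one another, and a match is only a match of letters.

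The genes that carry the odour signal inside the neuron, or that act in receptor choice, were set beside the receptors as a list of 21. Of these, 17 had a site in Saos-2 and 19 in U2OS (81.0% and 90.5%), close to the 75.2% and 81.9% of all protein-coding genes. Their spans were longer than those of the receptors, with a median of 24.9 kb. CNGA4, a subunit of the olfactory cyclic nucleotide-gated channel, lies inside the first receptor group. A hotspot of both lists overlapped its span, at 32.6 (Saos-2) and 56.9 (U2OS), and it was also within 1 kb of the adjacent gene FHIP1B. GNAL, the G protein alpha subunit of olfactory neurons, had 5 Saos-2 and 11 U2OS hotspots over a span of 196 kb. The hotspot counts of single genes are not scaled for length.

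LHX2 and its cofactor LDB1, which join receptor enhancers in sensory neurons, had 1 and 0 Saos-2 hotspots, and 2 and 5 U2OS hotspots. EBF1, with a span of 404 kb, had 11 and 13. EMX2, a homeodomain factor of the olfactory epithelium, and STOML3, a membrane protein of the sensory cilia, had none in either line. Among other chemosensory receptors, a site was found for 5 of 24 TAS2R bitter taste receptor genes in Saos-2 and 6 in U2OS, and for 1 of 6 TAAR trace amine receptor genes in each line. Of 3 VN1R genes, 2 had a site in Saos-2 and 0 in U2OS.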

How the data were processed

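Hotspot lists of 1 Saos-2 and 1 U2OS library were used. Per the labels' protocols, nuclei were digested with DNase I for 3 min at 37 °C. Per the submitters' processing notes, Trimmomatic 0.38 and BWA 0.7.15 were used and the build was hg38. The peak caller, the read filters and the treatment of reads that align to several copies are not given in the sources used here, and such reads bear on a family of near copies. The deposited lists carry a −log10 value per hotspot, read as the significance because its minimum is 1.30, the −log10 of 0.05, and it is capped at 100. The deposited score is 10 times that value, rounded, and was not used.

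Positions were converted to 1-based and set against gene spans and promoter windows of RefSeq (GRCh38.p14) with Python 3.11.15, pandas 2.3.3 and SciPy 1.17.1. Genes on scaffolds were left out. A site is a hotspot with at least 1 bp in the span plus 10 kb. Shares have Wilson 95% intervals, and the upper limit for a count of 0 is 3 counts of the total. Overlap counting was tested on simulated data. Named genes were those with a hotspot in their span, a site in both lines, the most covered bases or the greatest distance to a hotspot. Neighbouring genes are named where they lie within 15 kb and for the most remote shared site, a limit chosen after their values were seen. Other named genes and the printed promoters were also chosen after their values were seen. The members and lists were chosen with earlier results of these data known.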

Additional observations from a re-analysis of the deposited data

How the results depend on the processing

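No paired analysis was possible because each line had 1 library, and none could be left out. Of 43 values recomputed under an alternative, 18 stayed within the Wilson interval of the reported share and 25 did not. In the 9 alternatives run on both groups, receptor genes had the higher share with no site in either line, by at least 26.1 percentage points. Without flanks, the shares with no site in either line, in Saos-2 and in U2OS were 93.5, 97.6 and 94.6% of receptor genes, and 29.8% of other genes had none in either line. In the same order the values were 92.9, 97.0, 94.0 and 24.8% with flanks of 1 kb, 29.2, 65.5, 31.5 and 3.1% with 50 kb, 89.3, 97.0, 89.9 and 27.4% with the top 50% of each list, and 88.1, 97.0, 88.7 and 20.6% with hotspots of at least 200 bp. With the window of one length, the share in either line was 83.3% for receptor and 42.7% for other genes, and 85.1% for receptor genes in U2OS. Among other genes it was 15.1% with lists of equal length and 26.0% for spans of at most 5 kb. A minimum −log10 of 2, leaving out the 2 longest receptor spans, and counting the 3 scaffold genes as without a site were chosen after seeing the data; each left the receptor shares within their intervals. Depth is unknown, so a gene without a site may have one below detection.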
